A study of Arabidopsis thaliana with 21 samples.

Results

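The interaction of the mutant alleles asil1-1 and asil2-1 was measured by RNA sequencing of late heart embryos of Arabidopsis thaliana, whose cotyledons are growing out. It asks whether the asil1-1 asil2-1 double mutant differs from Col-0 by more or less than the effects of asil1-1 and asil2-1 added on the log2 scale. The 12 libraries that carry this 2 by 2 design, of 21 in the series, were 3 replicates each of asil1-1 asil2-1, asil1-1, asil2-1 and the wild type Columbia-0 (Col-0), and they were chosen by their genotype labels alone. All plants were of the Columbia-0 ecotype and grew at 22 °C with 16 h of light. Embryos were dissected by hand in cold sucrose, washed and concentrated on a Percoll gradient. Each library took 70 to 90 ng of total RNA as its input, and the number of embryos behind it is not given in the labels.

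ASIL1 and ASIL2 are trihelix transcription factors, a plant family whose DNA-binding domain recognises GT elements. ASIL1 is known as a repressor of seed maturation genes in Arabidopsis seedlings. Those genes encode storage, oil body and late embryogenesis abundant (LEA) proteins, and LEC1, LEC2, FUS3 and ABI3 turn them on in embryos. In a 2 by 2 design, a gene on which each loss acts independently has a double mutant at the sum of the single effects. A value above that sum can come from a double mutant that is high or from singles that are low, so each gene is given below with all 4 genotypes.

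The ASIL1 locus (AT1G54060, chr1:20180610-20182374 on TAIR10.1) checked the labels. ASIL1 had 2.79, 3.05 and 5.15 CPM (read counts scaled to library size) in asil1-1 asil2-1, 1.84, 1.81 and 1.26 CPM in asil1-1, 45.2, 35.2 and 38.1 CPM in asil2-1, and 34.6, 36.4 and 38.9 CPM in Col-0. All 6 libraries with asil1-1 lay far below the other 6. ASIL2 (AT3G14180, chr3:4706802-4709176) had 43.0, 48.2 and 60.3 CPM in asil1-1 asil2-1, 58.9, 56.5 and 52.9 CPM in asil1-1, 47.4, 38.9 and 36.8 CPM in asil2-1, and 55.1, 47.2 and 48.4 CPM in Col-0. The asil2-1 and Col-0 ranges overlapped, so the ASIL2 count does not check the asil2-1 label.

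Depth was 4137865 to 8049984 counts per library. The library of asil1-1 asil2-1 replicate 1 stood apart. AT5G18610, which encodes the receptor-like cytoplasmic kinase PBL27, took 45.7% of its counts, against 0.178 to 0.782% in the other 11. The interaction of AT5G18610 was 6.06 ± 1.87 (adjusted p = 0.815, edgeR) with that library and 0.66 ± 0.44 (adjusted p = 0.702) without it. The library's log2 CPM correlated with the others at 0.749 to 0.760, where the other 11 had median correlations of 0.968 to 0.975 among themselves. Results are therefore given from the 11 libraries without that replicate, 2 of them double mutants, and from all 12. A value with no number of libraries beside it is from 11, and no gene had an adjusted p below 0.480 in 12 by edgeR. Summed embryo markers came to 775, 1370 and 1400 CPM in asil1-1 asil2-1, to between 1402 and 1467 CPM in asil1-1, between 1323 and 1697 CPM in asil2-1 and between 1299 and 1441 CPM in Col-0. The low double-mutant value is replicate 1. All 14 embryo markers were detected, with LEC1 between 89.2 and 161 CPM. Seed coat markers (25 of 25 detected) summed to between 1470 and 2176 CPM in asil1-1 asil2-1, 1288 and 1905 CPM in asil1-1, 1358 and 2055 CPM in asil2-1, and 1398 and 1858 CPM in Col-0. Endosperm markers (17 of 17 detected) summed to between 615 and 761 CPM in asil1-1 asil2-1, 607 and 679 CPM in asil1-1, 520 and 820 CPM in asil2-1, and 522 and 643 CPM in Col-0. ICE1, between 272 and 339 CPM, was a large part of each sum. MINI3, MEA, IKU2 and AGL36 had 25.9, 15.1, 16.3 and 13.5 CPM in asil1-1 asil2-1 replicate 1 and at most 1.97 CPM elsewhere. Of 10 tested endosperm markers, that replicate was above all single-mutant libraries in 3 and below them in 5. The highest asil2-1 library was replicate 1 in 17 of 25 seed coat markers and 8 of 10 tested endosperm markers, against 37.2% of all models. In bulk embryos, fewer cells of a type and less RNA per cell cannot be told apart.

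A gene was called where the interaction, asil1-1 asil2-1 minus asil1-1 minus asil2-1 plus Col-0 in log2 units, had an adjusted p under 0.05 in edgeR's quasi-likelihood F test with Benjamini-Hochberg adjustment over all gene models tested. With all 12 libraries no model of 17659 was called (0%), and the lowest adjusted p was 0.480; 1002 models had an unadjusted p under 0.05 (5.67%), 3.58% above the sum and 2.09% below it. On the same 12 libraries DESeq2 called 23 models, and limma-voom with library weights, which gave asil1-1 asil2-1 replicate 1 a weight of 0.0887 and each other library at least 0.695, called 48. Without that replicate edgeR called 17 of 17866 models (0.0952%), 6 with the double mutant above the sum of the singles (0.0336%) and 11 below it (0.0616%). In this fit 9.21% of models had an unadjusted p under 0.05, 4.8% above the sum and 4.41% below. Regardless of p, 47.9% of models lay above the sum and 52.1% below it in 11 libraries, and 50.9% and 49.1% in 12. The 17 had the same sign in all 12 libraries as in 11. All 17 were among the 48 calls of the weighted fit, and 9 were among the 23 of DESeq2. These fits hold the 11 libraries that chose the 17, so they are no separate check. In DESeq2 the adjusted p was 3.75e-05 for DREB2A, 0.00024 for AT3G26140, 0.00319 for ERF2, 0.0673 for AT5G03380 and 0.728 for AGC2-1. In 11 libraries the last 4 were not called by edgeR without asil1-1 replicate 2, asil2-1 replicate 2 or asil2-1 replicate 3. DREB2A was called in each of these fits. The common dispersion was 0.0545 with all 12 libraries and 0.0154 with 11. The 11-library fit gave no call when asil1-1 asil2-1 replicate 3 or asil1-1 replicate 1 was also left out, so the number of calls depends on single libraries. The log2 values kept their sign over all alternatives run on 11 libraries, between 1.88 and 2.41 for DREB2A, 1.28 and 1.61 for AT5G03380 and -0.72 and -0.63 for AT2G07734.

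**Figure D1:**
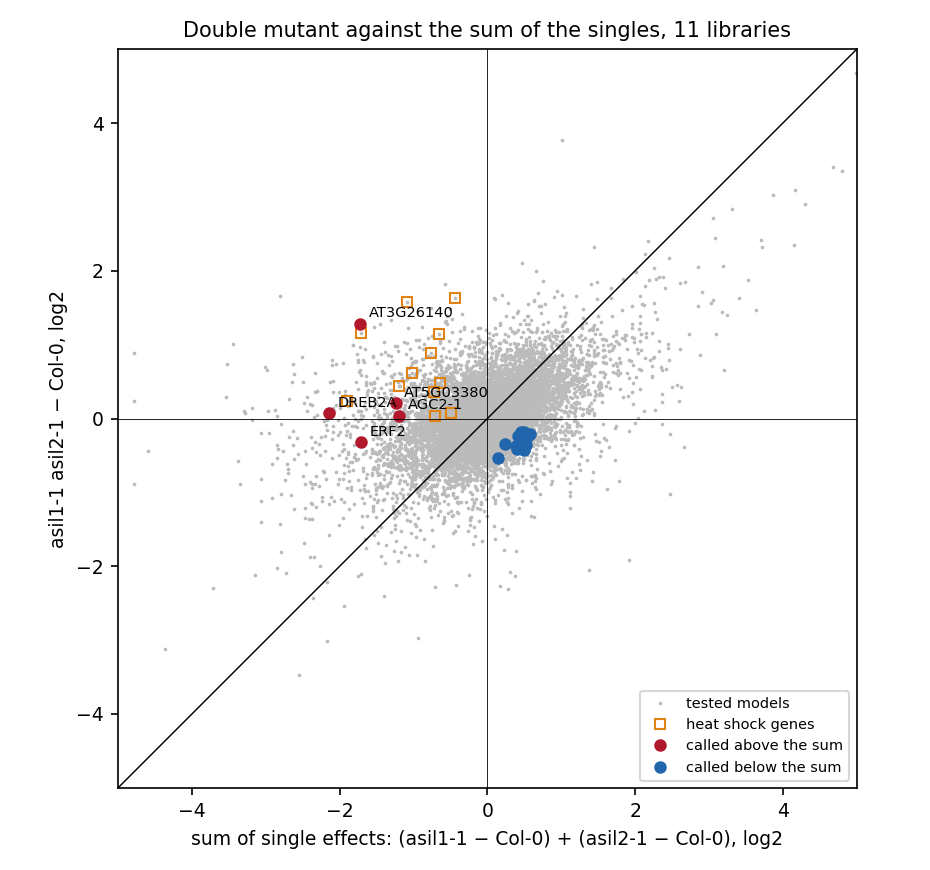
Each point is a gene model tested in 11 libraries. The x axis is the sum of the asil1-1 and asil2-1 effects against Col-0 and the y axis the asil1-1 asil2-1 effect against Col-0, both in log2, with the diagonal where they are equal; 4 models lie outside the axes. The 5 described models called above the sum (red) lie left of 0 on the x axis, and all but AT3G26140 are within 0.5 of 0 on the y axis, while the 11 called below it (blue) form a tight group at low positive sums and negative double-mutant effects.

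Among the 6 genes called above the sum were the stress transcription factors DREB2A and ERF2, the protein kinase AGC2-1, a heavy metal transport family protein (AT5G03380) and a cellulase family protein (AT3G26140). In 5 of the 6 the double mutant was close to Col-0, with log2 differences between -0.32 and 0.21 in 11 libraries, and at least 1 single mutant was lower. Their interaction ranged from 1.23 to 3.01 log2 units. The median asil1-1 effect of the 6 was -0.57 and the median asil2-1 effect -0.91. Both double-mutant libraries of the 11-library fit were above all 6 single-mutant libraries in 5 of the 6 genes, an order that 6.96% of all tested models have; these genes were chosen by the same contrast.

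DREB2A (AT5G05410, chr5:1602205-1604112, plus strand), which encodes an activator of drought and heat responsive genes that binds dehydration responsive elements, had the lowest p. It had 87.6, 119 and 137 CPM in asil1-1 asil2-1, 65.4, 65.3 and 74.3 CPM in asil1-1, 51.6, 39.7 and 54.7 CPM in asil2-1, and 87.7, 104 and 173 CPM in Col-0. Every asil1-1 and asil2-1 library was below every double-mutant and every Col-0 library. The interaction was 2.22 ± 0.28 (SE, adjusted p = 0.0149, edgeR) in 11 libraries and 2.07 ± 0.34 (adjusted p = 0.480) in 12. In the same 11-library fit asil2-1 differed from Col-0 by -1.31 ± 0.19 (adjusted p = 0.0247) and asil1-1 by -0.83 ± 0.19 (adjusted p = 0.101), while the double mutant differed from Col-0 by 0.08 ± 0.21 (adjusted p = 0.908).

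ERF2 (AT5G47220, chr5:19171643-19172956, minus strand), an ethylene response factor that activates genes through GCC boxes, had 35.0, 35.1 and 37.3 CPM in asil1-1 asil2-1, 32.4, 24.4 and 33.5 CPM in asil1-1, 18.4, 20.6 and 23.5 CPM in asil2-1, and 40.1, 39.6 and 56.5 CPM in Col-0. The 3 double-mutant libraries, replicate 1 included, lay between the singles and Col-0 without overlap. Its interaction was 1.39 ± 0.24 (adjusted p = 0.0371, edgeR) in 11 libraries and 1.38 ± 0.25 (adjusted p = 0.480) in 12.

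AGC2-1 (AT3G25250, chr3:9195334-9197126, plus strand), also known as OXI1, a kinase of oxidative burst signalling, had 16.7, 45.3 and 49.3 CPM in asil1-1 asil2-1, 38.5, 28.5 and 28.0 CPM in asil1-1, 27.6, 30.8 and 30.1 CPM in asil2-1, and 49.2, 37.7 and 51.9 CPM in Col-0. Replicate 1 of the double mutant was the lowest library of all 12 and the other double-mutant libraries were above every single. The interaction was 1.23 ± 0.21 (adjusted p = 0.0371) in 11 libraries and 0.92 ± 0.41 (adjusted p = 0.815) in 12.

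The DNA before these 3 genes is printed because they are the stress-response genes among the 5 described. In each of them, as in AT5G03380 and AT3G26140, double-mutant replicates 2 and 3 were above all single-mutant libraries. Each sequence is the 250 bases 5′ of the annotated gene start in the TAIR10.1 assembly (RefSeq), in the direction of transcription. Capitals mark, on either strand, a GCC box (GCCGCC), the core of a dehydration responsive element (CCGAC), a W box core (TTGAC), a G box (CACGTG), a GT box (GTGATT) or a heat shock element core (GAANNTTC).
DREB2A, chr5:1601955-1602204, plus strand: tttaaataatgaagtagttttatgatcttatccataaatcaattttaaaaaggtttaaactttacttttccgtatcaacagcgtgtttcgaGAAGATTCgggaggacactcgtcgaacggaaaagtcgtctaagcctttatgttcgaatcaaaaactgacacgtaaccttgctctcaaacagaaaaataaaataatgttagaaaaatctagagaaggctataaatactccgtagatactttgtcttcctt
ERF2, chr5:19172957-19173206, minus strand: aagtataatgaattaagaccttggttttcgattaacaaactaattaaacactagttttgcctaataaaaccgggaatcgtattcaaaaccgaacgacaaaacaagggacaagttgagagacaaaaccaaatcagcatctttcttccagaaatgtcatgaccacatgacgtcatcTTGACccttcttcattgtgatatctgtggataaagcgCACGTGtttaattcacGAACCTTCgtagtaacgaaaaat
AGC2-1, chr3:9195084-9195333, plus strand: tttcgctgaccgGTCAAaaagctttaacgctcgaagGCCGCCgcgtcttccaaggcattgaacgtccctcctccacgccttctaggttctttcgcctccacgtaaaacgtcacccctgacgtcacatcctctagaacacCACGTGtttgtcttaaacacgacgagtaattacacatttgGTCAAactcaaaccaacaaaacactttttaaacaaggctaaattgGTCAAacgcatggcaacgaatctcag
The DREB2A window holds 1 heat shock element core, the ERF2 window 1 W box core, 1 G box and 1 heat shock element core, and the AGC2-1 window 3 W box cores, 1 GCC box and 1 G box. Over all 6 genes called above the sum, 4 windows held a W box core, against 44.3% of 17671 tested protein-coding loci; 2 held a G box (7.52%), 2 a heat shock element core (9.37%), 1 a GCC box (1.96%), 1 a GT box (15.7%) and 0 a dehydration responsive core (12.7%). The AT3G26140 window, which is not printed, held 2 copies of the GT box, a short trihelix element. With 6 genes these shares are a description.

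AT5G03380 (chr5:832035-834549) had 35.0, 52.0 and 55.3 CPM in asil1-1 asil2-1, 37.1, 24.1 and 35.6 CPM in asil1-1, 34.3, 23.3 and 27.4 CPM in asil2-1, and 41.8, 46.6 and 51.3 CPM in Col-0, an interaction of 1.45 ± 0.24 (adjusted p = 0.0371) in 11 libraries and 1.29 ± 0.30 (adjusted p = 0.802) in 12. AT3G26140 (chr3:9559555-9563322) had 19.1, 14.9 and 9.88 CPM in asil1-1 asil2-1, 1.17, 2.66 and 3.28 CPM in asil1-1, 4.11, 2.57 and 2.63 CPM in asil2-1, and 5.88, 5.84 and 3.35 CPM in Col-0. It had every double-mutant library, replicate 1 included, above every other library. Its interaction was 3.01 ± 0.52 (adjusted p = 0.0371, edgeR) in 11 libraries and 3.25 ± 0.59 (adjusted p = 0.480) in 12, and the double mutant was higher than asil1-1 by 2.33 (adjusted p = 0.00908).

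**Figure D2:**
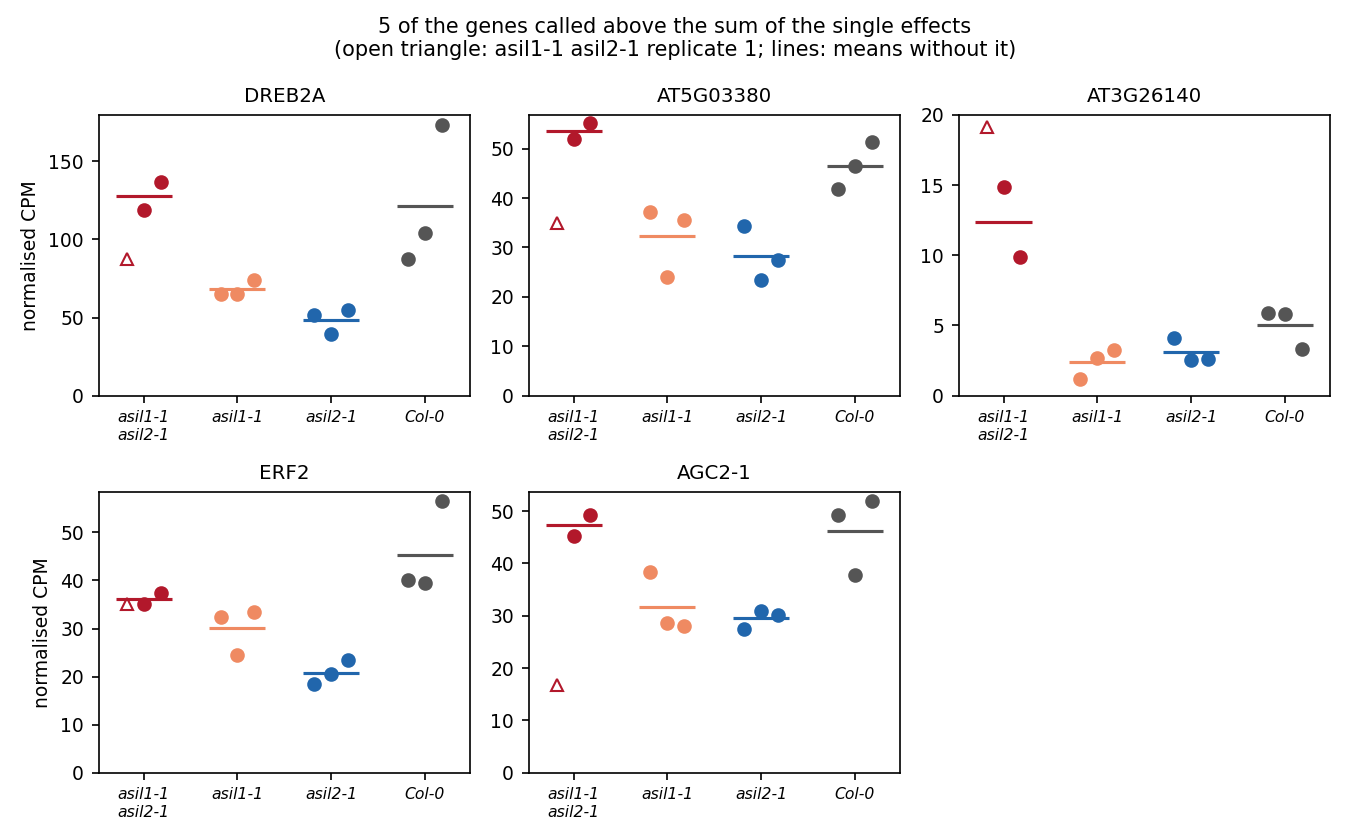
Normalised CPM (y axis, from 0) of 5 of the 6 genes called above the sum in each of the 12 libraries, by genotype (x axis). Circles are libraries, the open triangle is asil1-1 asil2-1 replicate 1, and lines are group means without it; the single mutants lie below Col-0 for DREB2A and ERF2, and the double mutant is high for AT3G26140.

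The wound, touch and cold response list, which holds DREB2A and ERF2, had 2 members called of 28 tested (2 above the sum, 0 below) against 0.0952% of all models. Of the 28, 25 had a positive interaction and the median was 0.51 in 11 libraries (26 and 0.43 in 12), where all models had a median of -0.01. The positive share over all models was 47.9% in 11 libraries and 50.9% in 12. With the called genes, 13 members had an unadjusted p under 0.05, all above the sum, against 4.8% of all models in that direction. The NAC factor gene ATAF1 had an interaction of 0.82 ± 0.16 (adjusted p = 0.0753), RRTF1, an ERF factor of redox stress, 0.98 ± 0.20 (adjusted p = 0.0933), AOC3, an enzyme of jasmonate synthesis, 1.23 ± 0.28 (adjusted p = 0.132), and JAZ1, a repressor of jasmonate responses, 0.84 ± 0.20 (adjusted p = 0.169). Weighted limma-voom on all 12 libraries called ATAF1 (adjusted p = 0.0335) and RRTF1 (adjusted p = 0.0468), but not AOC3 or JAZ1. In that fit asil1-1 asil2-1 replicate 1 had a weight of 0.0887. In edgeR on all 12 libraries ATAF1 and RRTF1 each had an adjusted p of 0.815. RRTF1 had 73.2, 103 and 112 CPM in asil1-1 asil2-1, 90.8, 82.6 and 94.5 CPM in asil1-1, 65.3, 82.2 and 83.0 CPM in asil2-1, and 111, 109 and 160 CPM in Col-0. In 20 of the 28 the highest Col-0 library was replicate 3, against 32.9% of all models, and without it the list's median was 0.42. The asil2-1 libraries were all below the Col-0 libraries in 9 of the 28, against 6.01% of all models.

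Heat shock genes, the chaperones and HSF factors of the heat response, were all on the positive side in both fits. That held for 12 of 12 tested, against 47.9% of all models in 11 libraries and 50.9% in 12. Their median interaction was 1.65 in 11 libraries and 1.62 in 12. None was called by edgeR. In 11 libraries 8 had an unadjusted p under 0.05, against 4.8% of all models above the sum. In 12 libraries 3 did, against 3.58%. HSFB2B, the member with the lowest p, had 35.0, 56.3 and 65.1 CPM in asil1-1 asil2-1, 52.0, 50.1 and 44.7 CPM in asil1-1, 51.9, 37.0 and 44.0 CPM in asil2-1, and 57.7, 51.9 and 69.7 CPM in Col-0, an interaction of 0.74 ± 0.20 (adjusted p = 0.231) in 11 libraries and 0.54 ± 0.29 (adjusted p = 0.815) in 12. HSFA2, a factor that sustains the heat response, had 83.2, 75.6 and 69.6 CPM in asil1-1 asil2-1, 40.8, 52.0 and 24.6 CPM in asil1-1, 61.8, 16.0 and 16.9 CPM in asil2-1, and 41.6, 25.4 and 95.7 CPM in Col-0. The double-mutant libraries were high together, while within Col-0 and asil2-1 a single library held most of the signal. Col-0 replicate 3 was the highest Col-0 library in 12 of 12 heat shock genes, against 32.9% of all models. The highest asil2-1 library was replicate 1 in 11 of 12, against 37.2%. The lowest asil1-1 library was replicate 3 in 11 of 12, against 33%. The median was 0.80 without Col-0 replicate 3 and 2.60 without asil2-1 replicate 1. Double-mutant replicates 2 and 3 were above all 6 single-mutant libraries in 9 of 12, against 6.96% of all models.

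**Figure D3:**
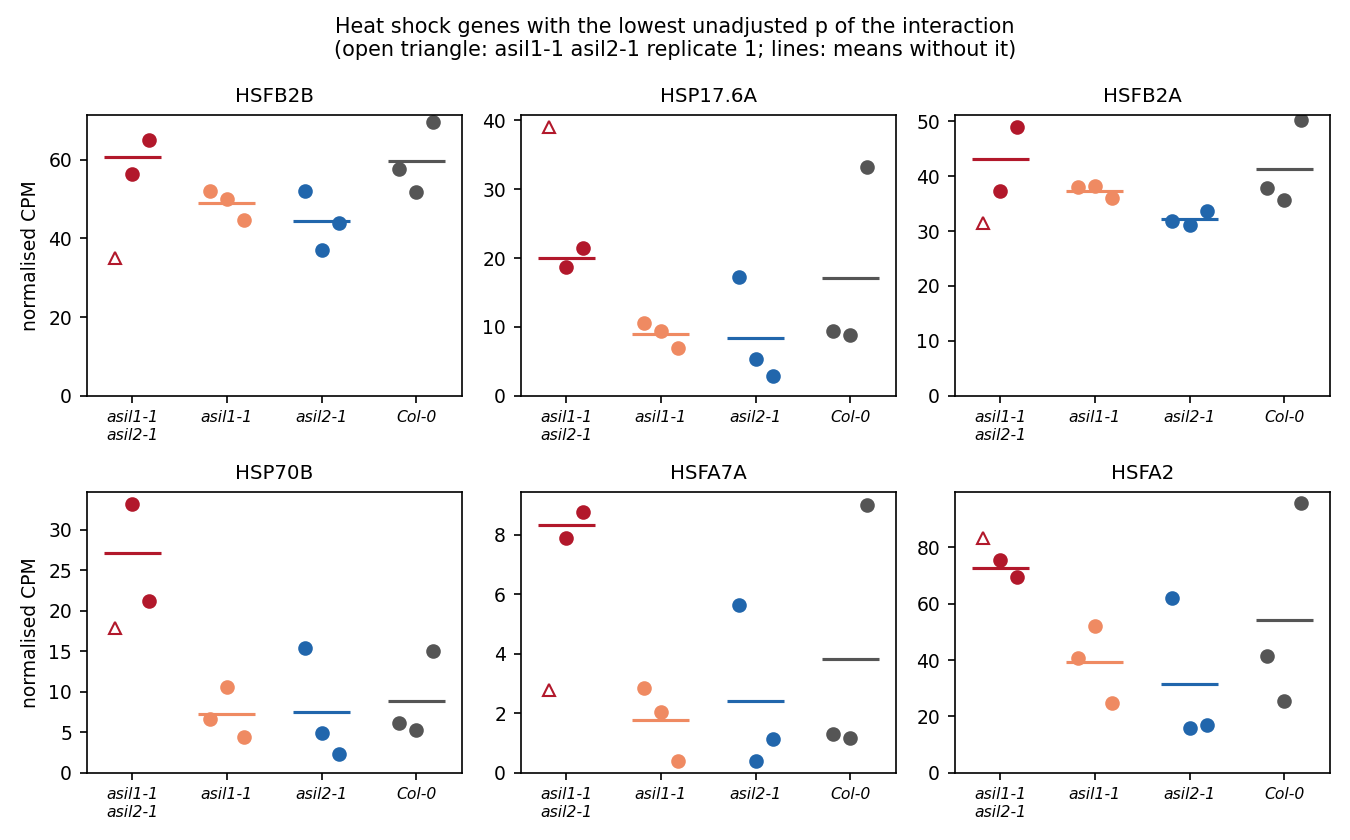
Normalised CPM (y axis, from 0) of the 6 heat shock genes with the lowest unadjusted p of the interaction, in each of the 12 libraries by genotype (x axis). Circles are libraries, the open triangle is asil1-1 asil2-1 replicate 1 and lines are group means without it; Col-0 replicate 3 is the highest Col-0 point in every panel, as it is in 12 of 12 members, and none of the 6 passed the adjustment.

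All 11 models called below the sum were of mitochondrial sequence: 8 models with mitochondrial genome identifiers (ATMG) and 3 loci, AT2G07674, AT2G07708 and AT2G07734, in the copy of mitochondrial DNA that chromosome 2 of Arabidopsis is known to carry. The mitochondrial genome encodes subunits of the respiratory chain and parts of the ribosome, and its transcripts end up in total RNA libraries. The 11 interactions ran from -0.92 to -0.58 log2 units in 11 libraries and from -0.98 to -0.74 in 12. In all 11 models every asil1-1 library was above every Col-0 library and every double-mutant library was below every single-mutant library, replicate 1 included, and in 10 of 11 double-mutant replicates 2 and 3 were also below every Col-0 library. These orders are held by 7.62% (asil1-1 above Col-0) and 6.83% (double-mutant replicates 2 and 3 below the singles) of all tested models, and they belong to the contrast that chose the 11.

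ATMG00570 had 113, 139 and 120 CPM in asil1-1 asil2-1, 250, 257 and 236 CPM in asil1-1, 164, 175 and 178 CPM in asil2-1, and 175, 156 and 193 CPM in Col-0. The asil1-1 libraries were the highest and the double mutant the lowest, with asil2-1 and Col-0 overlapping between them. The interaction was -0.92 ± 0.13 (adjusted p = 0.0172, edgeR) in 11 libraries and -0.98 ± 0.18 (adjusted p = 0.480) in 12; asil1-1 was higher than Col-0 by 0.50 ± 0.09 (adjusted p = 0.0362) and the double mutant was lower than asil1-1 by -0.93 (adjusted p = 0.000724). ATMG00510 had 1282, 1558 and 1287 CPM in asil1-1 asil2-1, 2231, 2407 and 2211 CPM in asil1-1, 1861, 1782 and 1781 CPM in asil2-1, and 1706, 1634 and 1731 CPM in Col-0, an interaction of -0.78 ± 0.11 (adjusted p = 0.0169) in 11 libraries and -0.83 ± 0.18 (adjusted p = 0.617) in 12. ATMG00513 had 572, 1521 and 1260 CPM in asil1-1 asil2-1, 2038, 2145 and 2109 CPM in asil1-1, 1679, 1753 and 1652 CPM in asil2-1, and 1601, 1555 and 1756 CPM in Col-0, and its interaction was -0.65 ± 0.11 (adjusted p = 0.0402) in 11 libraries. In ATMG00513 the first double-mutant replicate was far below the others. The remaining 5 called ATMG models were ATMG00830 at -0.78, ATMG00520 at -0.77, ATMG00285 at -0.68, ATMG00580 at -0.63 and ATMG00090 at -0.58 (adjusted p between 0.0172 and 0.0371).

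The loci on chromosome 2 are near-identical to the mitochondrial genome, so their counts cannot be told apart from it. AT2G07708 (chr2:3386851-3388160) aligned to the mitochondrial sequence over its whole 1310 bases with 1 mismatch (99.924% identity). The 41 bases around that mismatch, shown because they hold the only base at which this locus differs from the organelle copy, were read from TAIR10.1 in the direction of chromosome 2, with the differing base in capitals.
AT2G07708, chr2:3386964-3387004: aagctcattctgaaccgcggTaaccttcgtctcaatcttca
mitochondrial genome, MT:246780-246820, minus strand: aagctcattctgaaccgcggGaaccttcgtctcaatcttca
AT2G07708 had 330, 425 and 354 CPM in asil1-1 asil2-1, 671, 656 and 635 CPM in asil1-1, 535, 564 and 527 CPM in asil2-1, and 529, 504 and 527 CPM in Col-0, the order of genotypes seen in the ATMG models, with an interaction of -0.81 ± 0.11 (adjusted p = 0.0169) in 11 libraries. AT2G07734 (chr2:3472305-3473692), annotated as a ribosomal protein S4 family protein, had an interaction of -0.68 ± 0.11 (adjusted p = 0.0274), and AT2G07674 (chr2:3268932-3269906) one of -0.88 ± 0.15 (adjusted p = 0.0371). Of 47 tested nuclear loci at least 90% covered by mitochondrial sequence at 95% identity or more, 46 lay between positions 3240494 and 3502294 of chromosome 2. In 11 libraries 44 of the 47 had a negative interaction, against 52.1% of all models, with a median of -0.39. An unadjusted p under 0.05 below the sum was found in 21, against 4.41% of all models. In 12 libraries 23 were negative, against 49.1% of all models, and the median was 0.00.

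**Figure D4:**
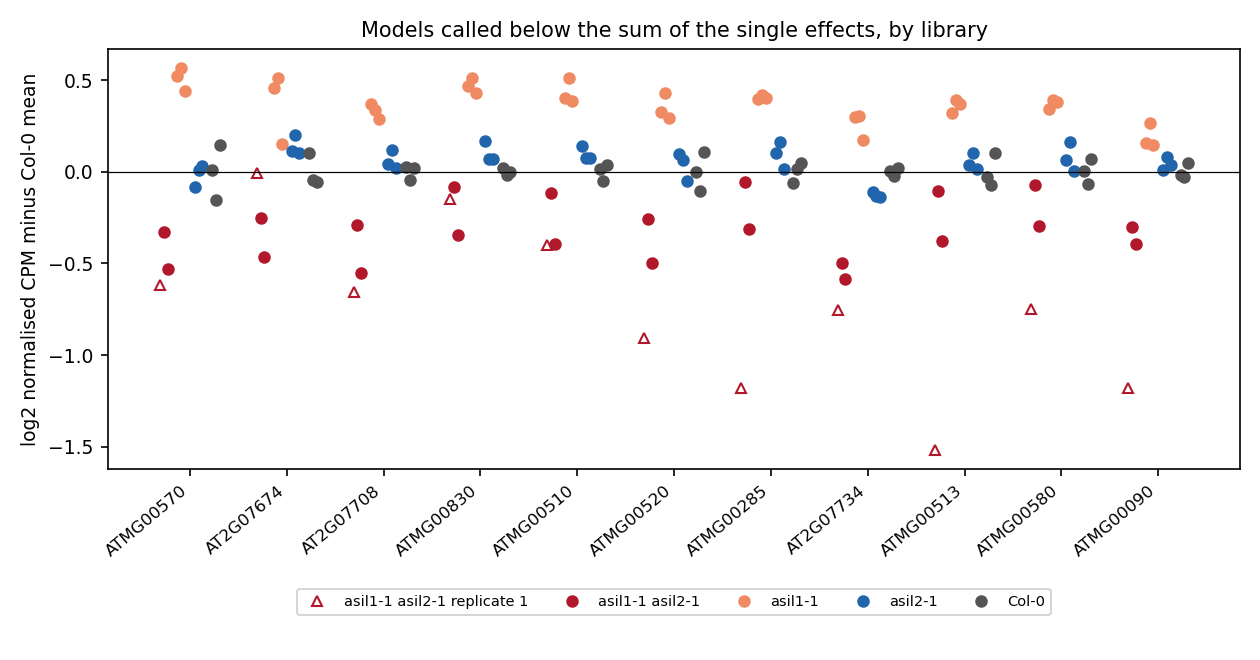
Log2 normalised CPM minus the mean of the 3 Col-0 libraries (y axis) for the 11 models called below the sum (x axis, ordered by interaction), with 1 point per library coloured by genotype. In each model the 3 asil1-1 points are above the Col-0 points and the asil1-1 asil2-1 points, with replicate 1 as an open triangle, are below all single-mutant points.

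Over the mitochondrial genome as a whole, 76 of 89 tested ATMG models had a negative interaction in 11 libraries, against 52.1% of all models. The median was -0.41. Of the 89, 8 were called below the sum, against 0.0616% of all models, and 0 above. An unadjusted p under 0.05 on the negative side was found in 35, against 4.41% of all models. These counts differ with replicate 1 of the double mutant: in 12 libraries 50 of 89 were negative, against 49.1% of all models. The median was then -0.17, and 21 had an unadjusted p under 0.05 on that side, against 2.09%. In replicate 1 of the double mutant 47 of the 89 models were above every single-mutant library and 33 below, against 38.1% and 41.5% of all models. Of the chloroplast genome models, 37 of 70 were negative in 11 libraries, against 52.1% of all models, with a median of -0.01 and none called. An unadjusted p under 0.05 was found in 4, against 9.21% of all models in either direction. The share of counts from ATMG models, without AT5G18610, was 5.41, 4.76 and 4.61% in asil1-1 asil2-1, 5.62, 5.395 and 5.38% in asil1-1, 4.97, 5.31 and 4.70% in asil2-1, and 5.02, 4.91 and 4.80% in Col-0. Replicate 1 of the double mutant was above all Col-0 libraries and replicates 2 and 3 were below them. Most of the share came from ATMG00030, with 32586, 25898 and 25829 CPM in asil1-1 asil2-1 and 25681, 26157 and 24240 CPM in Col-0. All ATMG models together had 48396, 46314 and 44157 CPM in asil1-1 asil2-1 and 46829, 46948 and 45410 CPM in Col-0. ATMG00030 had an interaction of -0.09 ± 0.10 (adjusted p = 0.850, edgeR). The share therefore does not describe the other ATMG models.

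The seed maturation programme, on which ASIL1 is known to act, had no called member. Of 14 tested maturation activators 9 had a negative interaction, with a median of -0.10 in 11 libraries (-0.29 in 12). LEC1, the NF-Y subunit that starts the programme, had an interaction of -0.29 ± 0.17 (adjusted p = 0.626). Its relative L1L (NF-YB6) had the lowest p of the list, with 41.4, 27.8 and 22.6 CPM in asil1-1 asil2-1, 38.3, 35.7 and 20.8 CPM in asil1-1, 40.2, 55.3 and 34.7 CPM in asil2-1, and 44.4, 20.9 and 20.5 CPM in Col-0 (interaction -0.94 ± 0.42, adjusted p = 0.511). The 4 genotypes overlapped. Only 3 of 8 storage protein genes passed the filter on low counts, none called; the cruciferin gene CRA1 had 13.9, 10.6 and 7.66 CPM in asil1-1 asil2-1, 9.70, 14.8 and 9.73 CPM in asil1-1, 1.98, 5.53 and 6.41 CPM in asil2-1, and 10.0, 9.51 and 8.79 CPM in Col-0 (interaction 0.70 ± 0.46, adjusted p = 0.694). Oil genes had 13 of 16 tested members on the negative side (median -0.16), among them the oil body protein gene OLEO3, with 172, 128 and 104 CPM in asil1-1 asil2-1, 181, 181 and 128 CPM in asil1-1, 184, 241 and 167 CPM in asil2-1, and 189, 144 and 127 CPM in Col-0 (interaction -0.86 ± 0.25, adjusted p = 0.265). LEA genes had 4 of 6 tested members positive (median 0.42), and maturation repressors 7 of 18 (median -0.06). In all 12 libraries the medians were -0.36 for oil genes, 0.66 for LEA genes and -0.21 for repressors, with 13 of 16 negative, 4 of 6 positive and 4 of 18 positive. Of all models, 52.1% were negative and 47.9% positive in 11 libraries, and 49.1% and 50.9% in 12.

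ASIL1 itself was the repressor with the lowest p, with an interaction of 1.24 ± 0.33 (adjusted p = 0.221, edgeR) in 11 libraries and 1.12 ± 0.34 (adjusted p = 0.815) in 12. That value comes from the low level left in asil1-1 asil2-1 and asil1-1, and as a difference of mean CPM in place of log2 the sign turned, to -0.41 CPM in 11 libraries and -0.85 CPM in 12. ASIL2 had an interaction of 0.24 ± 0.18 (adjusted p = 0.739).

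LBD37, a nitrate-induced repressor, had 13.1, 15.6 and 20.6 CPM in asil1-1 asil2-1, 11.4, 18.5 and 14.3 CPM in asil1-1, 6.70, 4.74 and 9.86 CPM in asil2-1, and 12.2, 21.5 and 24.5 CPM in Col-0. The asil2-1 libraries were below all the others, but the interaction of 1.73 ± 0.41 did not pass (adjusted p = 0.155, edgeR). Auxin synthesis and response genes had 13 of 17 positive in both fits, against 47.9% of all models in 11 libraries and 50.9% in 12. Their median was 0.24 in 11 libraries and 0.10 in 12, and none was called. GH3.3 encodes an auxin-conjugating enzyme. It had 41.8, 49.99 and 48.6 CPM in asil1-1 asil2-1, 45.6, 48.3 and 44.6 CPM in asil1-1, 38.4, 46.2 and 53.9 CPM in asil2-1, and 65.3, 73.3 and 71.6 CPM in Col-0. All 9 mutant libraries of GH3.3 were below all Col-0 libraries; the mutant ranges overlapped each other, and the interaction was 0.69 ± 0.17 (adjusted p = 0.187).

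The other lists described here had no member called by edgeR in either fit. Over all models the share of negative interactions was 52.1% in 11 libraries and 49.1% in 12. Negative interactions were the more frequent in cell cycle genes (26 of 32, median -0.13), embryo patterning genes (26 of 36, median -0.13), embryo markers (10 of 13, median -0.26) and light harvesting genes (27 of 36, median -0.09), in 11 libraries. In 12 libraries the same lists had 28 of 32 (median -0.28), 24 of 36 (-0.22), 10 of 13 (-0.38) and 28 of 36 (-0.15) members negative. Their lowest p values were those of CYCA1;1, a mitotic cyclin (-0.59 ± 0.16, adjusted p = 0.221), PHB, an HD-ZIP III factor of the adaxial side (-0.38 ± 0.12, adjusted p = 0.338), PDF1, an epidermal gene (-0.35 ± 0.18, adjusted p = 0.577), and LHCB4.2, an antenna protein (-0.35 ± 0.13, adjusted p = 0.414). The embryo patterning and embryo marker lists share members, among them WOX2, SCR and PLT1, so their counts are not independent. Seed coat markers were positive in 15 of 25 in both fits (median 0.41 in 11 libraries, 0.29 in 12), with MUM2, a mucilage beta-galactosidase, at 10.2 and 13.1 CPM in asil1-1 asil2-1 replicates 2 and 3 and 6.77 CPM in replicate 1, 4.96 to 6.44 CPM in asil1-1, 4.11 to 6.13 CPM in asil2-1 and 7.54 to 9.80 CPM in Col-0 (interaction 1.701 ± 0.34, adjusted p = 0.0753, edgeR). MUM2 was called by weighted limma-voom on all 12 libraries (1.75, adjusted p = 0.0335), where asil1-1 asil2-1 replicate 1 had a weight of 0.0887. In edgeR on all 12 the MUM2 interaction was 1.51 ± 0.41 (adjusted p = 0.802). Endosperm markers were positive in 6 of 10 in both fits (median 0.15 in 11 libraries, 0.13 in 12), with FWA, an imprinted homeobox gene, at 0.65 ± 0.39 (adjusted p = 0.655, edgeR). Positive interactions were held by 47.9% of all models in 11 libraries and 50.9% in 12.

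With all 12 libraries, where no gene passed in edgeR, the genes of lowest p above the sum included GAMMA-TIP, a vacuolar membrane aquaporin, and VIN3, a chromatin regulator of vernalisation. GAMMA-TIP had 24.3, 9.32 and 18.24 CPM in asil1-1 asil2-1, 4.51, 3.27 and 3.28 CPM in asil1-1, 7.62, 5.34 and 6.08 CPM in asil2-1, and 6.31, 12.0 and 7.75 CPM in Col-0. The double mutant was above all single mutants and overlapped Col-0. Its interaction was 2.66 ± 0.51 (adjusted p = 0.480, edgeR) in 12 libraries and 2.39 ± 0.44 (adjusted p = 0.0582) in 11. VIN3 had 2.35 ± 0.45 (adjusted p = 0.480) in 12 libraries and 2.14 ± 0.40 (adjusted p = 0.0626) in 11. On the same 12 libraries both were called by DESeq2 (adjusted p = 0.00319 for GAMMA-TIP and 0.00357 for VIN3) and by weighted limma-voom (adjusted p = 0.0335 for each).

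In the remaining lists the members of lowest p did not pass in edgeR either. In 12 libraries these were WRI1, a regulator of oil synthesis (-0.42), OLEO2, an oleosin (-0.94), COR47, a dehydrin (0.89), PHV, an HD-ZIP III factor (-0.53), SPL15, an SBP-box factor (1.34), HSP17.6A, a small heat shock protein (2.52), FER1, a ferritin (0.51), SWA1, a nucleolar protein (-0.62), PLT2, a root meristem factor (-0.71), and ATCG01040 (1.48), each with an adjusted p of 0.815. In 11 libraries they were ERD10, a dehydrin (0.69, adjusted p = 0.453), FBA2, a plastid aldolase (-0.45, adjusted p = 0.372), LAX1, an auxin influx carrier (0.51, adjusted p = 0.558), and HCHIB, a chitinase (2.15, adjusted p = 0.403). The iron regulator PYE had 0.67 (adjusted p = 0.513), the contaminant marker RBCS3B 0.50 (adjusted p = 0.731), AT5G40040, a 60S acidic ribosomal protein, 2.31 (adjusted p = 0.271), AGO1, the microRNA effector, 0.29 (adjusted p = 0.388), MTR4, an RNA helicase, 0.30 (adjusted p = 0.452), and ATCG00050 -0.43 (adjusted p = 0.388). AGO1, MTR4 and ATCG00050 had the other sign in all 12 libraries, with -0.01, -0.02 and 0.53.

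**Figure D5:**
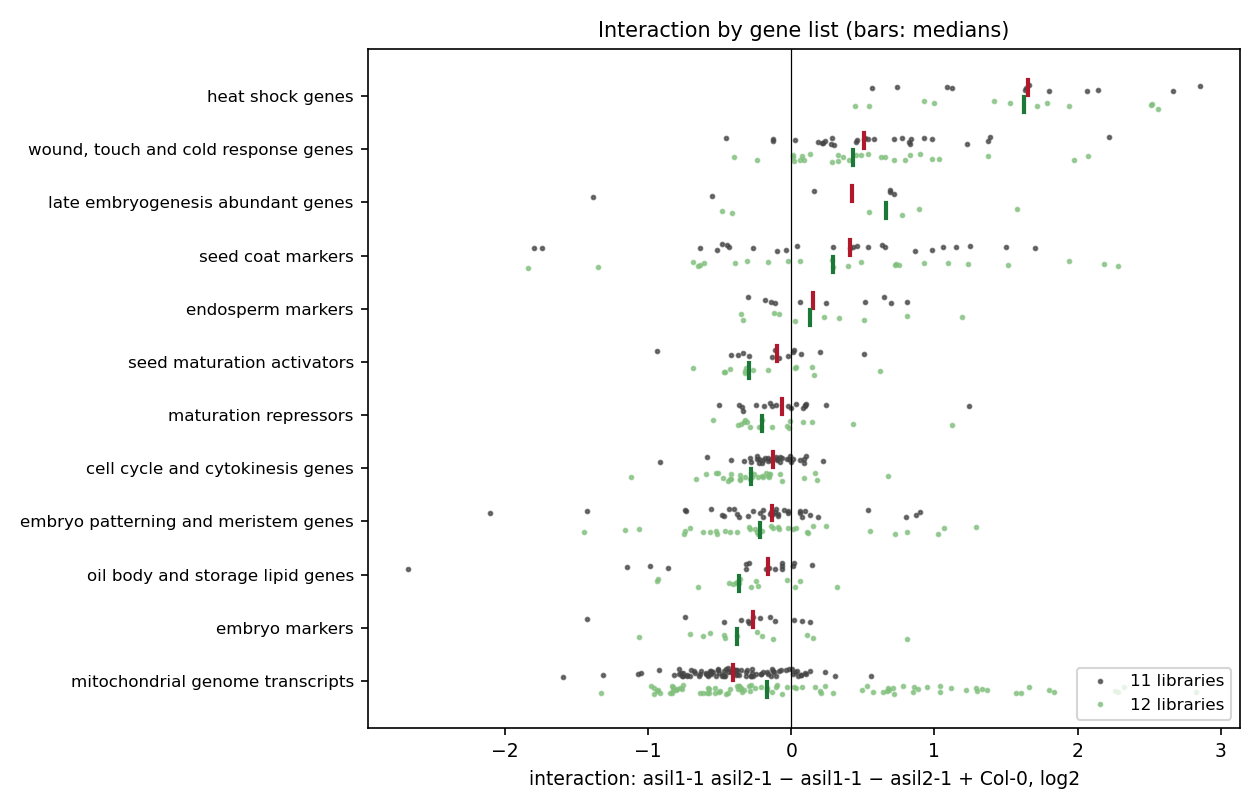
Interaction in log2 (x axis) of every tested member of 12 gene lists (y axis), from the 11-library fit (dark points, red bar at the median) and the 12-library fit (green points, green bar at the median). Heat shock genes lie to the right of 0 in both fits, and the mitochondrial genome transcripts lie mostly to the left of 0 in 11 libraries and spread to both sides in 12.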

How the data were processed

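RNA was sequenced from dissected late heart stage embryos, and the deposited files hold raw read counts per gene model, 1 file per library; models not listed in a file were set to 0. Per the submitters' processing notes the build was TAIR10 and the tools included Bowtie 0.12.7 and edgeR 3.0.8; how reads were counted, with or without strand, and how reads with several matches were treated was not given in the sources used here. Reads of near-identical copies may therefore be split or shared. The counts, deposited by the authors, were fitted with edgeR 4.0.16 (R 4.3.3) with 4 group means, TMM scaling and filterByExpr (minimum count 10, minimum total 15). SE is the log2 value divided by the square root of F. CPM use the TMM-scaled library sizes of the 12 libraries. Alternatives used DESeq2 1.42.0 and limma 3.58.1. The fit was also run on simulated counts with a constant dispersion and no outlying library. That run does not test how the fit handles asil1-1 asil2-1 replicate 1. Sequences, gene positions and products come from RefSeq for TAIR10.1, which has a locus for 26100 of 26496 models, and copies were found with blastn 2.17.0 (E-value at most 1e-20). No libraries agreed within sampling noise. The members and lists were chosen with earlier results of these data known. Named were ASIL1, ASIL2, AT5G18610 and the genes called in each fit (up to 12 in each direction, filled up to 5 by lowest p). Of each list, up to 4 called members or the member of lowest p were named. Further list members (HSFA2, RRTF1, ATAF1, AOC3, JAZ1, LEC1 and LBD37) were chosen after their values were seen. The labels only number the replicates, so p-values measure the spread between these samples, which may be technical. One gene called above the sum is not reported here. Same-numbered replicates were not paired by the labels.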

Additional observations from a re-analysis of the deposited data

Results flagged for a closer look

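The effect of asil1-1 differed between plants with asil2-1 and plants without it in 17 models by the test of the difference itself (edgeR quasi-likelihood, adjusted p under 0.05 over 17866 models, 11 libraries without asil1-1 asil2-1 replicate 1). The differences in log2 units, the asil1-1 effect with asil2-1 minus that without, included 2.22 for DREB2A, 1.45 for AT5G03380, 3.01 for AT3G26140, 1.39 for ERF2 and 1.23 for AGC2-1. On the other side they were -0.92 for ATMG00570, -0.88 for AT2G07674, -0.81 for AT2G07708, -0.78 for ATMG00830, -0.78 for ATMG00510, -0.77 for ATMG00520, -0.68 for ATMG00285, -0.68 for AT2G07734, -0.65 for ATMG00513, -0.63 for ATMG00580 and -0.58 for ATMG00090. With all 12 libraries none passed in edgeR.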

How the results depend on the processing

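Genes called with all 12 libraries numbered 0, also with RLE scaling, without the filter, with a replicate block and without AT5G18610, 2 (2 above the sum, 0 below) in a fit of all 21 libraries, 23 (14 and 9) with DESeq2 and 48 (27 and 21) with weighted limma-voom. Leaving out 1 library gave 0 to 17 calls, 0 to 6 above and 0 to 11 below; the only one to give any was asil1-1 asil2-1 replicate 1. Alternatives for the 11-library fit were chosen after seeing the data. It called 17 (6 and 11) also with RLE scaling and without AT5G18610, 384 (287 and 97) without the filter, 61 (33 and 28) with a replicate block, 6 (3 and 3) with 20 libraries in 7 groups, 70 (41 and 29) with DESeq2 and 30 (13 and 17) with weighted limma-voom. Leaving out a further library gave 0 to 54 calls (0 to 31 above, 0 to 23 below): 0 without asil1-1 asil2-1 replicate 3 or asil1-1 replicate 1, 2 without asil1-1 replicate 2 or asil2-1 replicate 2, 4 without asil2-1 replicate 3, 7 without Col-0 replicate 2, 10 without Col-0 replicate 3, 14 (4 and 10) without asil1-1 asil2-1 replicate 2, 29 without Col-0 replicate 1, 42 without asil1-1 replicate 3 and 54 without asil2-1 replicate 1; where the double mutant is left with 1 library, it is assumed to vary like the others. The cause was not tested. All 17 kept their sign under every alternative run, though these fits share libraries with the fit that chose the 17.

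The replicate block changed no call with all 12 libraries (0). In 11 libraries it took the calls from 17 to 61, with all 17 among them. Same-numbered libraries had deviations correlated over 0.1 in 7 of 18 pairs (-0.13 to 0.19), among them the 3 pairs of asil1-1 with asil2-1 (0.126, 0.110 and 0.130). Between asil2-1 and Col-0 they were 0.166, -0.131 and 0.161, and between asil1-1 and Col-0 0.193, -0.065 and 0.004. The double-mutant deviations were taken from a mean that includes replicate 1, so this check cannot exclude pairing. The labels do not pair the numbers, and the main fit treated the libraries as unpaired.

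Signs turned in the 12-library fit for AGO1 (0.25 with weighted limma-voom, 0.29 without asil1-1 asil2-1 replicate 1, 0.04 without asil2-1 replicate 3, 4.39 as a CPM difference), MTR4 (0.27, 0.30 and 0.02 in the first 3 of these settings, 0.0034 without Col-0 replicate 1), ATCG00050 (-0.38 with weighted limma-voom, -0.43 without asil1-1 asil2-1 replicate 1), ASIL1 (-0.85 as a CPM difference) and ASIL2 (-0.015 without asil1-1 asil2-1 replicate 3). Over all leave-one-out fits of the 12 libraries AGO1 ranged from -0.22 to 0.29, MTR4 from -0.24 to 0.30, ATCG00050 from -0.43 to 0.85 and ASIL2 from -0.015 to 0.26. Of the storage protein genes 3 of 8 passed the filter on low counts, so differences in the others were not detectable at this depth.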
